A study of Rattus norvegicus with 47 samples.

Results

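The genes that build the mitochondrial respiratory chain and the ATP synthase were followed through the stages of liver tumour development in rats. The 86 members of 14217 genes tested were all those with a single symbol beginning Nduf, Sdh (Sdha to Sdhd), Uqcr, Cox4 to Cox8 or Atp5 in the annotation of the array. They comprised 34 subunits of complex I (16 of its matrix arm and 18 of its membrane arm), 6 complex I assembly factors, 4 subunits of complex II, 7 of complex III, 10 of complex IV with 7 tissue-restricted isoforms, 15 of complex V, and 3 further genes, Atp5if1, Cox7a2l and the pseudogene Cox6c-ps1. Another 7 matching probe sets carry a second gene symbol and were left out, so that Cox7a2, Uqcrb, Atp5mc1, Atp5mc2, Ndufs5 and Ndufa10 were not analysed here. Genes encoded by mitochondrial DNA were not analysed here either.

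Rats of the groups compared were male Wistar (Han-Wistar), were 4 weeks old at the start, received 250 mg/kg N-nitrosomorpholine (NNM, a liver carcinogen) once and, after 3 weeks of recovery, 50 mg/kg phenobarbital (PB, a tumour promoter) per day in drinking water for up to 17 months. Surrounding liver carries the same exposures as the lesions per the labels, so no group compared here was free of NNM and phenobarbital. The labels of the 3 arrays named C43 normal conflict on whether they are normal liver or surrounding tissue, their exposure was not settled, and they entered no comparison. Formalin-fixed, paraffin-embedded (FFPE) lesions, isolated by laser microdissection, were foci (n = 9, 3 animals) and adenomas (n = 5, 3 animals), with FFPE surrounding liver (n = 4, 4 animals) as control. Frozen lesions were nodules (n = 5, 3 animals), adenomas (n = 6, 2 animals), carcinomas with no mutation in their group label (n = 4, 3 animals) and carcinomas labelled as beta-catenin mutated (n = 4, 3 animals), with frozen surrounding liver (n = 7, 5 animals) as control. Several lesions come from 1 rat, and p-values measure the spread between arrays more than between animals. Levels are the deposited log2 values, and the array medians ranged from 5.49 to 5.59 (frozen) and from 5.58 to 5.68 (FFPE). Changes are log2 differences between lesions and surrounding liver of the same labelled control set ± standard error. Each set holds 1 surrounding array. Frozen adenomas came from 2 sets and each other lesion group from 3, so changes rest mainly on that many surrounding arrays, not on all those of a fixation. A member counts as called when its limma p, adjusted across all 14217 genes (Benjamini-Hochberg), is under 0.05.

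The respiratory chain oxidises NADH at complex I and succinate at complex II, passes the electrons through complex III to oxygen at complex IV, and pumps protons that complex V, the ATP synthase, uses to make ATP. Hepatocytes are rich in mitochondria and depend on this chain for gluconeogenesis and urea synthesis, and many tumours shift part of their ATP supply to glycolysis. Nuclear genes of the chain share promoter elements for NRF1, NRF2/GABP (an ETS factor) and YY1 in mammals.

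Of 10 hepatocyte markers, 1 rose (Apoa1) and 1 fell in foci and likewise in FFPE adenomas, 0 were called in nodules, and 1 fell in frozen adenomas, 1 in carcinomas and 3 in beta-catenin carcinomas. Fgb, the fibrinogen beta chain, fell by 0.38 in foci, 0.42 in FFPE adenomas, 0.94 in carcinomas and 1.35 in beta-catenin carcinomas. Alb stayed bright, at 14.15 to 14.54 in FFPE adenomas and 14.44 to 14.58 in FFPE surrounding liver. In frozen tissue Alb measured 15.064 to 15.125 in adenomas, 14.954 to 15.046 in beta-catenin carcinomas and 15.03 to 15.13 in surrounding liver. The mean level of these markers was 12.90 to 13.21 in foci and 13.15 to 13.41 in FFPE surrounding liver, and 13.29 to 13.64 in frozen adenomas, 12.91 to 13.59 in beta-catenin carcinomas and 13.60 to 13.76 in frozen surrounding liver. Of 15 stellate cell and fibroblast markers, 3 rose in foci, 4 in FFPE adenomas and 1 in frozen adenomas, and 1 rose and 1 fell in beta-catenin carcinomas, with Col1a1 higher by 1.21 in foci and 2.18 in FFPE adenomas. Their mean level was 6.32 to 7.43 in foci, 6.89 to 7.43 in FFPE adenomas and 6.23 to 6.89 in FFPE surrounding liver. Of 6 cholangiocyte markers, Krt19 and Epcam rose in both kinds of adenoma, Krt19 by 2.52 (FFPE) and 4.45 (frozen). The list means were 5.96 to 6.61 in FFPE adenomas and 5.19 to 5.59 in FFPE surrounding liver. In frozen tissue they were 6.21 to 8.87 in adenomas, 6.16 to 8.30 in nodules and 5.43 to 6.11 in surrounding liver. Nodules thus also lay wholly above surrounding liver, though none of these markers was called there. Carcinomas ranged from 5.27 to 6.24 and beta-catenin carcinomas from 5.22 to 8.21. Of 6 blood cell markers, Hbb and Alas2 fell in frozen adenomas (list means 6.25 to 6.74, against 6.785 to 7.499 in frozen surrounding liver) and Alas2 in both kinds of carcinoma. Of 9 endothelial markers 1 fell, in beta-catenin carcinomas, and the 10 lymphocyte markers, with none called by limma, had median changes of -0.32 to -0.02 over the 6 comparisons. Of 10 macrophage markers, 4 fell in foci, 2 in frozen adenomas, 7 in carcinomas and 7 in beta-catenin carcinomas, while all 12 proliferation genes rose in frozen adenomas, 7 in carcinomas and 10 in beta-catenin carcinomas. The mean level of the macrophage markers was 8.11 to 8.99 in carcinomas, 7.86 to 8.80 in beta-catenin carcinomas and 9.08 to 9.61 in frozen surrounding liver. The shares of all genes called in each comparison are given in the next paragraph. The part of these cell types in the members' values was not tested. In bulk tissue, fewer cells of a type and less RNA per cell cannot be told apart.

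Few members were called between lesions and surrounding liver, and the members centred near 0 in all 6 lesion groups. The shares called over all genes were low too, and apart from frozen adenomas the members' rises lay near them. Their falls, 1 in frozen adenomas, 0 in carcinomas and 1 in beta-catenin carcinomas, lay below the shares in those groups. Of 86 members, 7 were called in at least 1 of the 6 comparisons with surrounding liver and 79 in none. In foci 1 member rose and 0 fell, while 1.81% of all genes rose and 1.36% fell. In FFPE adenomas 1 member rose and 0 fell, against 1.29% and 0.872% of all genes. No member was called in nodules, where limma called 0% of all genes in either direction, with 1200 genes and 1 member at an unadjusted p under 0.05. In frozen adenomas 1 member rose and 1 fell, against 8.36% and 6.56% of all genes. In carcinomas 2 rose and 0 fell, against 2.86% and 3.5% of all genes, and in beta-catenin carcinomas 5 rose and 1 fell, against 5.09% and 5.07%. The median change of the 86 members was 0.00 in foci, -0.01 in FFPE adenomas, -0.01 in nodules, -0.01 in frozen adenomas, 0.05 in carcinomas and 0.02 in beta-catenin carcinomas. Over all genes these medians were -0.02, -0.02, -0.01, -0.01, 0.01 and 0.03. The 95% interval of the change lay within 2-fold for 77 members in foci, 80 in FFPE adenomas, 85 in nodules, 85 in frozen adenomas and 84 in each kind of carcinoma. Without the control set block the counts were larger, with 16 members called in frozen adenomas, 9 in carcinomas and 11 in beta-catenin carcinomas, beside 28.1%, 16.9% and 17.8% of all genes. In nodules the largest moderated t of each complex belonged to Ndufs6 of complex I (-0.16 ± 0.08), Sdha of complex II (0.09 ± 0.10), Uqcrc2 of complex III (0.19 ± 0.09), Cox4i1 of complex IV (-0.11 ± 0.08) and Atp5me of complex V (-0.13 ± 0.07). The 4 frozen comparisons share surrounding arrays and are not independent of each other, and the same holds for foci and FFPE adenomas. Frozen and FFPE adenomas are not independent either. In their titles, frozen adenoma replicates 2 and 3 carry the same tumour names as FFPE adenoma replicates 3 and 4.

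**Figure D1:**
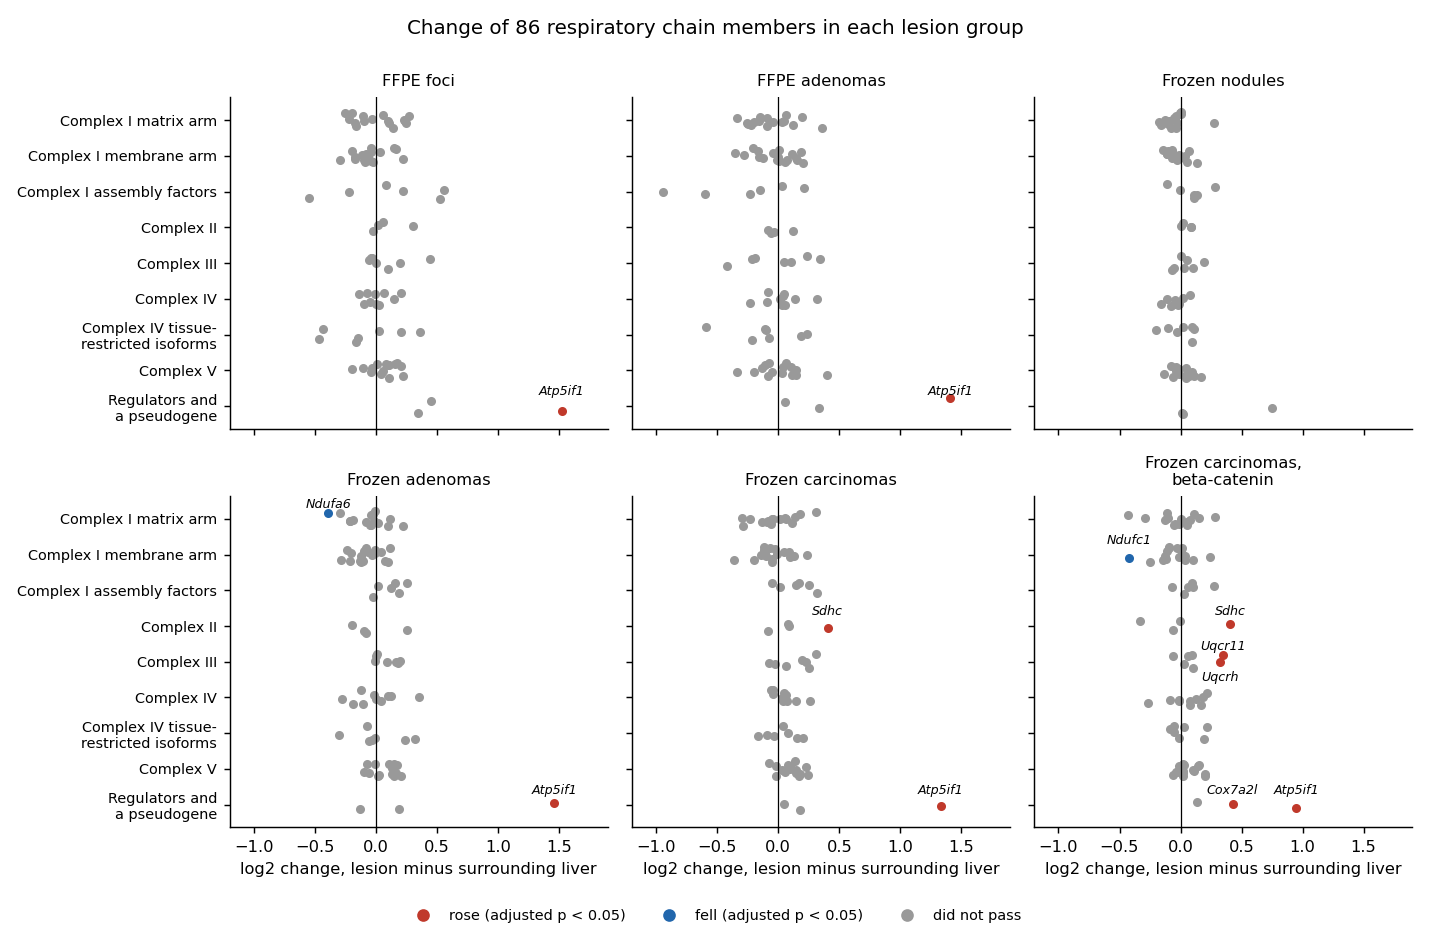
Log2 change of each member (points) in lesions minus surrounding liver, by complex (rows) and lesion group (panels), with called members named. Nearly all points lie close to 0, and Atp5if1 stands to the right in every panel, uncalled in nodules.

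Atp5if1, which encodes IF1, the small protein that inhibits ATP hydrolysis by the ATP synthase, had the largest rise of the members in each group where it was called. Its level was 9.01 to 10.13 in the 9 foci (median 9.81), against 7.57, 8.34, 8.46 and 8.47 in FFPE surrounding liver. The FFPE adenomas measured 9.35, 9.50, 9.72, 9.90 and 10.03, and all FFPE lesions lay above all surrounding arrays. Its rise was 1.52 ± 0.19 in foci (2.87-fold, adjusted p = 6.65e-06 by limma) and 1.41 ± 0.21 in FFPE adenomas (2.66-fold, adjusted p = 0.000139 by limma). In frozen tissue the 7 surrounding arrays measured between 9.22 and 9.97. The 6 adenomas measured 10.18 to 11.55 (median 11.12), the carcinomas 10.78, 10.86, 11.11 and 11.11, and the beta-catenin carcinomas 9.94, 10.57, 10.68 and 10.68. Adenomas and carcinomas did not overlap with surrounding liver, while beta-catenin carcinoma replicate 4 fell within its range. The rises were 1.46 ± 0.23 in adenomas (2.76-fold, adjusted p = 0.000736 by limma), 1.33 ± 0.24 in carcinomas (2.51-fold, adjusted p = 0.00402 by limma) and 0.95 ± 0.24 in beta-catenin carcinomas (1.93-fold, adjusted p = 0.0154 by limma). The 5 nodules, at 10.31 to 10.80, also lay above all surrounding arrays, yet their change of 0.75 ± 0.22 did not pass (adjusted p = 0.286 by limma). Every lesion array exceeded the surrounding array of its own control set, including 9 of 9 foci, 5 of 5 nodules and 6 of 6 frozen adenomas.

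**Figure D2:**
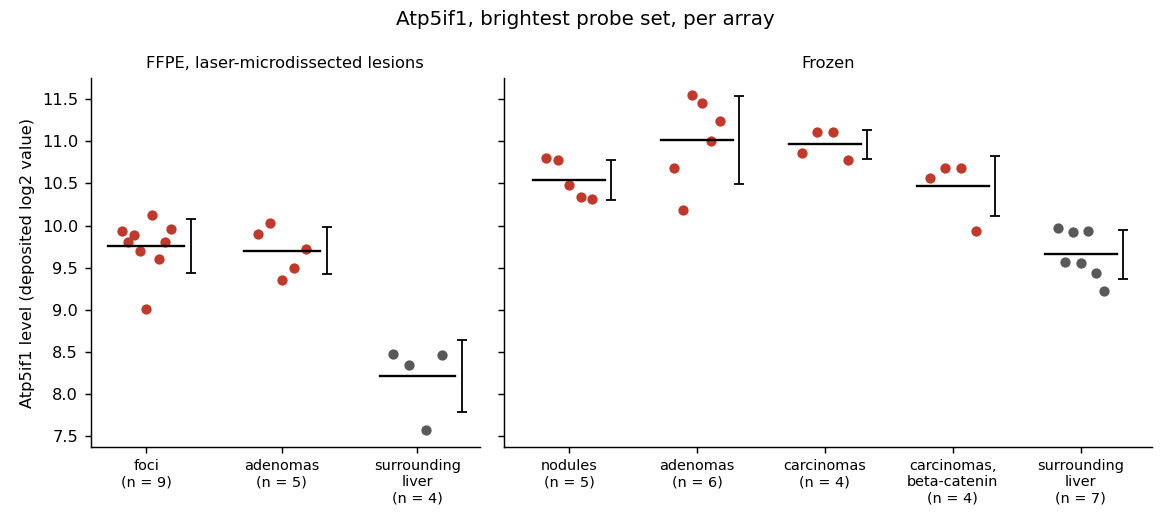
Atp5if1 level (deposited log2 value of the brightest probe set) per array, with lesions in red left of surrounding liver in grey. Lines and bars are mean ± SD. FFPE lesions begin at 9.01, above the highest FFPE surrounding array at 8.47, and only the lowest beta-catenin carcinoma, at 9.94, reaches into the frozen surrounding range.

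The rise of Atp5if1 was called on 1 of its 3 probe sets, the brightest. That probe set averaged 10.47 in frozen and 9.40 in FFPE tissue, while the others averaged 5.30 and 5.20 in frozen and 4.76 and 4.40 in FFPE tissue, below every array's median. The dim probe sets changed by 0.12 ± 0.17 and -0.69 ± 0.23 in frozen adenomas, by 0.25 ± 0.17 and -0.45 ± 0.24 in carcinomas, by 0.09 ± 0.17 and -0.57 ± 0.24 in beta-catenin carcinomas, by 0.34 ± 0.30 and -0.68 ± 0.33 in foci and by 0.83 ± 0.34 and -0.19 ± 0.36 in FFPE adenomas. The first of them thus lay in the direction of the bright probe set and the second in the other, and none of these passed. With the mean of all 3 probe sets the change was 0.39 in foci, 0.68 in FFPE adenomas, 0.30 in frozen adenomas, 0.37 in carcinomas and 0.16 in beta-catenin carcinomas, with adjusted p of 0.131 to 0.583. The call in beta-catenin carcinomas was also lost without surrounding replicate 2 or 7. Ranked by p over 14217 genes, Atp5if1 stood at place 35 in foci, 42 in FFPE adenomas, 92 in frozen adenomas, 79 in carcinomas and 701 in beta-catenin carcinomas. Between lesion groups its level was not called different, with 0.71 (95% interval 0.15 to 1.27) in adenomas minus nodules, -0.13 (-0.82 to 0.55) in carcinomas minus adenomas and -0.38 (-0.85 to 0.09) in beta-catenin carcinomas minus carcinomas.

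Promoter sequences are shown for Atp5if1, the member with the largest rise, and for a called member of complex I and one of complex III. Each line gives the 250 bases before the gene start from RefSeq (rat build GRCr8, 5′ to 3′ on the gene's strand), with an ETS match in capitals.
Atp5if1 (chr5:150026678-150026927, minus strand): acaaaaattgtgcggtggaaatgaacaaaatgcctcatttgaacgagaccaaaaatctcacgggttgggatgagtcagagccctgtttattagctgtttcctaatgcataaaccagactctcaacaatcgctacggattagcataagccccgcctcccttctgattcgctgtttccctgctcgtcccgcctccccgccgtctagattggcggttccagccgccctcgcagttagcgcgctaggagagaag
Ndufa6 (chr7:115750318-115750567, minus strand): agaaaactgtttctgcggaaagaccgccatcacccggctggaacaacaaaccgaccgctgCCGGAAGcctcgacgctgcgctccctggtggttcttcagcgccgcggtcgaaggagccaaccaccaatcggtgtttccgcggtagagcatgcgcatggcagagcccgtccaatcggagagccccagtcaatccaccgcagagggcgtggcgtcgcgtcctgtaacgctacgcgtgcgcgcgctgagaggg
Uqcrh (chr5:134790883-134791132, minus strand): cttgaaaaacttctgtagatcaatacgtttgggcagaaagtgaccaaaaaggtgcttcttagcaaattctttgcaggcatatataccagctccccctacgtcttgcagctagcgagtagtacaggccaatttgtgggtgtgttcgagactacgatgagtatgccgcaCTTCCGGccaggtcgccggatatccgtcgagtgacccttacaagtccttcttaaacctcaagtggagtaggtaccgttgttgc

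The window searched ran from 250 bases before to 50 after the start on both strands, and 78 members had one among 27457 promoters. The ETS motif CCGGAAG was found in 22 members (28.2%, against 9.2% of all promoters), the palindromic NRF1 motif of 10 bases in 5 (6.4%, against 0.9%) and the YY1 motif AAGATGGCG in 11 (14.1%, against 1.9%). At least 1 of these 3 motifs was found in 33 members (42.3%, against 11.5%). The antioxidant response motif TGACNNNGC was found in 9 members (11.5%, against 12.2% of all promoters). Ndufa6 held an ETS match at bases -190 to -184 and a YY1 match at 16 to 24 from the start. Uqcrh held an ETS match at -83 to -77. The Atp5if1 window held none of the 4 motifs, as did those of Cox7a2l, Sdhc and Ndufc1. Members' promoters had a median GC content of 56.0%, against 52.3% of all promoters. A match describes the letters only.

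Complex I, the entry point for NADH, had 2 called members among its 34 subunits, each lower in 1 lesion group. Ndufa6, an accessory subunit of the matrix arm, fell in frozen adenomas. It measured 10.83, 10.98, 11.11, 11.16, 11.21 and 11.35 in adenomas and 11.29 to 11.52 (median 11.43) in surrounding liver, so that only the highest adenoma overlapped. Its change was -0.39 ± 0.11 (adjusted p = 0.0213 by limma), lower in 6 of 6 adenomas than in the matched surrounding array. The call was lost with the animal in place of the control set as a block (adjusted p = 0.0853) and without surrounding replicate 4 or 6 (adjusted p up to 0.111). In carcinomas Ndufa6 measured 10.78 to 11.19, a change of -0.30 ± 0.11 that did not pass (adjusted p = 0.117 by limma). In beta-catenin carcinomas it measured 11.19 to 11.69, with a change of 0.11 on the same scale. Between both kinds of carcinoma Ndufa6 differed by 0.41 ± 0.11 (unadjusted p = 0.000963, adjusted p = 0.418 by limma), which is not a call. Ndufc1, a small subunit of the membrane arm, fell in beta-catenin carcinomas to 10.50, 10.68, 10.80 and 10.93, against 11.11 to 11.59 in surrounding liver. These ranges did not overlap, and the change was -0.42 ± 0.12 (adjusted p = 0.0373 by limma). The call was lost on the carcinoma control sets alone and without surrounding replicate 2, 5 or 7 or beta-catenin carcinoma replicate 2, 3 or 4, with adjusted p of up to 0.238. In carcinomas its change of -0.36 ± 0.12 did not pass (adjusted p = 0.088 by limma).

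The core subunits of complex I showed no call. Ndufs1, the iron-sulphur subunit that carries electrons from the flavin site, changed by 0.23 ± 0.24 in foci, 0.36 ± 0.27 in FFPE adenomas, 0.28 ± 0.34 in nodules, 0.22 ± 0.35 in frozen adenomas, 0.31 ± 0.36 in carcinomas and -0.01 ± 0.36 in beta-catenin carcinomas. Its spread was wide in some lesions. It measured 9.16 to 11.20 in frozen adenomas and 9.04 to 10.75 in beta-catenin carcinomas, against 10.07 to 10.27 in surrounding liver. Ndufv1, the flavin subunit that binds NADH, changed by -0.03 ± 0.08 in nodules, -0.01 ± 0.09 in frozen adenomas, 0.14 ± 0.09 in carcinomas and 0.05 ± 0.09 in beta-catenin carcinomas, and by 0.27 ± 0.17 in foci. Ndufa9, an accessory subunit at the junction of both arms, ranged from -0.05 to 0.18 over the 6 comparisons, with 0.10 ± 0.16 in foci and 0.15 ± 0.10 in beta-catenin carcinomas. Over the 16 matrix arm genes the median change was 0.01 in foci, -0.09 in FFPE adenomas, -0.05 in nodules, -0.04 in frozen adenomas, -0.05 in carcinomas and -0.03 in beta-catenin carcinomas. The 18 membrane arm genes had medians of -0.07, 0.00, -0.05, -0.09, -0.06 and -0.02 in the same order. In frozen adenomas 4 of 18 membrane arm genes lay above 0, and in carcinomas 5 of 18, none of them called. Of all 14217 genes, 7016 and 7476 lay above 0 in these groups. Adenoma replicate 1 and beta-catenin carcinoma replicate 1 stood low. Their matrix arm means relative to the surrounding array of their set were -0.35 and -0.33. Ndufv2, a matrix arm subunit singled out after its values were seen, measured 10.12 in that adenoma and 9.69 in that carcinoma, against 11.03 to 11.61 in surrounding liver. The source name of this beta-catenin carcinoma does not give the mutation that its group label gives.

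Complex II, which also serves the citrate cycle, had 1 called member among its 4 subunits. Sdhc, an anchor that binds haem and ubiquinone, measured 11.92, 11.96, 12.04 and 12.08 in carcinomas, against 11.33 to 11.73 (median 11.52) in surrounding liver, without overlap. It measured 11.73 to 12.28 (median 11.90) in beta-catenin carcinomas, where the lowest array reached the top of the surrounding range. The rise was 0.40 ± 0.11 in carcinomas (adjusted p = 0.0295 by limma) and 0.41 ± 0.11 in beta-catenin carcinomas (adjusted p = 0.0195 by limma), higher in 4 of 4 arrays in each group. Sdhc was higher in 6 of 6 frozen adenomas too, with a change of 0.25 ± 0.10 that did not pass (adjusted p = 0.106 by limma). Fitted on the carcinoma control sets alone, both changes kept their size and lost the call (adjusted p = 0.0802 and 0.061). The call in carcinomas was lost without carcinoma replicate 1, 3 or 4 or surrounding replicate 5 or 7 (adjusted p up to 0.226), and that in beta-catenin carcinomas without beta-catenin replicate 2 or 3 or surrounding replicate 5 or 7 (adjusted p up to 0.12). Sdha, the flavin subunit that oxidises succinate, measured 10.77 to 10.89 in beta-catenin carcinomas, against 11.01 to 11.29 in surrounding liver. Its change of -0.33 ± 0.11 did not pass (adjusted p = 0.0642 by limma). Sdhb, the iron-sulphur subunit, stayed between -0.10 and 0.09 in the 6 comparisons and changed by -0.10 ± 0.12 in frozen adenomas, 0.09 ± 0.12 in carcinomas and -0.06 ± 0.12 in beta-catenin carcinomas.

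Complex III, which oxidises ubiquinol and reduces cytochrome c, had called members in beta-catenin carcinomas, 2 of 7. Uqcr11, a small subunit, measured 10.98, 11.29, 11.30 and 11.64 in beta-catenin carcinomas and 10.89 to 11.11 in surrounding liver, overlapping through the lowest carcinoma. Its rise was 0.35 ± 0.10 (adjusted p = 0.0371 by limma). Uqcrh, the hinge protein next to cytochrome c1, measured 11.10, 11.12, 11.12 and 11.29 in beta-catenin carcinomas and 10.77 to 11.32 in surrounding liver, so that the plain ranges overlapped fully. Within control sets it was higher in 4 of 4 arrays, by 0.15 to 0.49, and its rise was 0.32 ± 0.10 (adjusted p = 0.0443 by limma). Without the control set block the change of Uqcrh was 0.16 (adjusted p = 0.24). The change of Uqcrh was 0.19 with the animal as replicate block (adjusted p = 0.167). Both calls were lost without surrounding replicate 5 or 7 or beta-catenin replicate 2 or 3, that of Uqcrh also without surrounding replicate 1 or 4 or beta-catenin replicate 4, with adjusted p of up to 0.325 for Uqcr11 and 0.24 for Uqcrh. On the carcinoma control sets alone neither gene was called (adjusted p = 0.154 for Uqcr11 and 0.108 for Uqcrh). In carcinomas both were higher in 4 of 4 arrays and did not pass, with 0.25 ± 0.10 for Uqcr11 and 0.31 ± 0.10 for Uqcrh (adjusted p = 0.162 and 0.0714 by limma). The core proteins were not called. Uqcrc1 changed by 0.19 ± 0.15 in foci and 0.09 ± 0.12 in beta-catenin carcinomas, and Uqcrfs1, the Rieske iron-sulphur protein, by 0.10 ± 0.18 and 0.03 ± 0.11 in the same groups. Over the 6 comparisons Uqcrc1 ranged from 0.06 to 0.23 and Uqcrfs1 from -0.19 to 0.10. Uqcrc2, the other core protein, singled out after its values were seen, ranged from 0.10 to 0.45 and was called in none. Its largest change was in foci, 0.45 ± 0.15, where its second probe set changed by 0.11 ± 0.15.

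**Figure D3:**
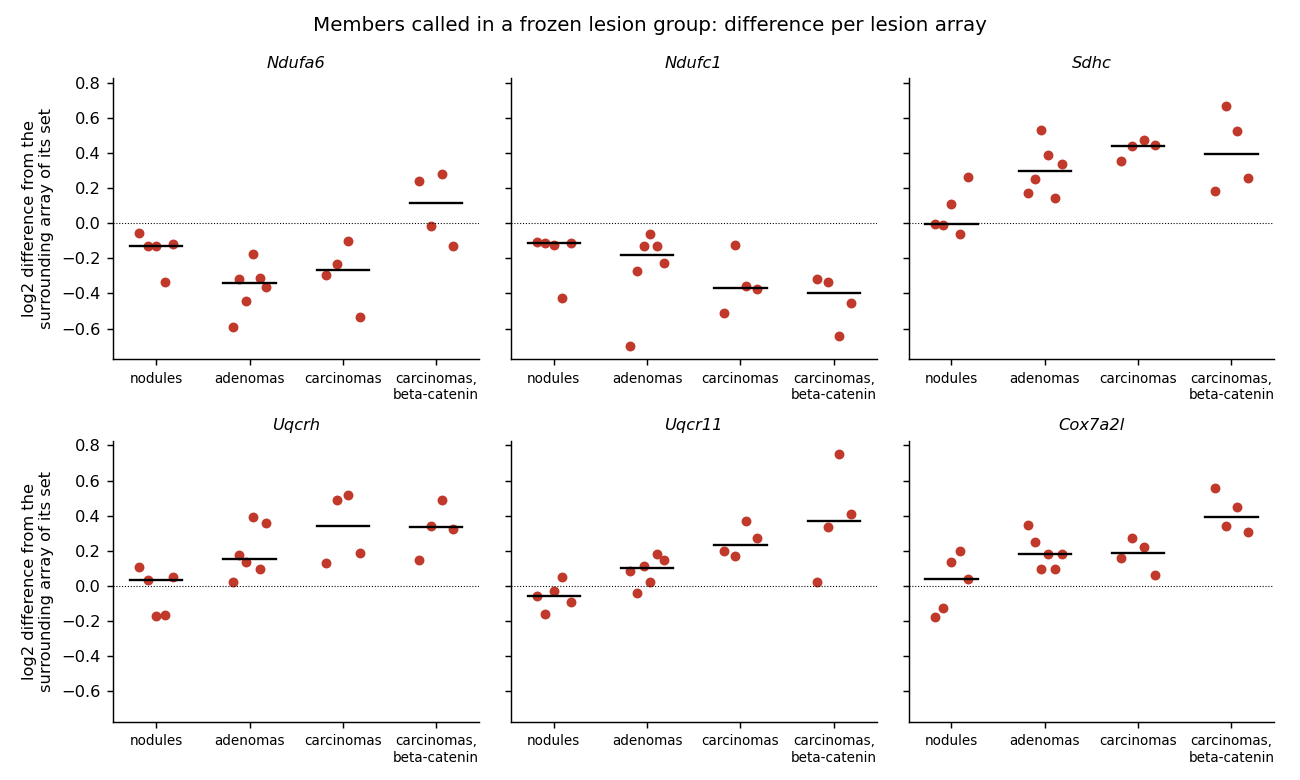
Log2 difference of each frozen lesion array (points, medians as lines) from the surrounding array of its own control set, for the called members other than Atp5if1. Sdhc and Uqcrh lie above 0 in every adenoma and carcinoma of both kinds, Cox7a2l also, and Ndufc1 lies below 0 in every frozen lesion.

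Complex IV, cytochrome c oxidase, had no called member in any lesion. Its nuclear subunits were bright, with Cox4i1 averaging 11.82 in frozen tissue and Cox8a 12.17, except Cox5a, whose probe set averaged 6.99. Cox4i1, the regulatory subunit that binds ATP, changed by -0.14 ± 0.13 in foci, -0.19 ± 0.08 in frozen adenomas, 0.04 ± 0.08 in carcinomas and 0.13 ± 0.08 in beta-catenin carcinomas. Cox5a, which with Cox4 forms an early assembly step, changed by -0.28 ± 0.15 in frozen adenomas, 0.04 ± 0.15 in carcinomas and -0.01 ± 0.15 in beta-catenin carcinomas. Over all 6 comparisons Cox4i1 ranged from -0.19 to 0.13 and Cox5a from -0.28 to 0.04. Cox8a, a small membrane subunit, was higher in 4 of 4 carcinomas by 0.13 to 0.40, and its change of 0.26 ± 0.08 did not pass (adjusted p = 0.0688 by limma). Cox6a1, Cox6b1 and Ndufa4, the last now counted as a complex IV subunit, changed by at most 0.22 in either direction in all 6 comparisons. No switch to tissue-restricted isoforms was called. Cox4i2 (lung), Cox6a2, Cox7a1 and Cox8b (heart and muscle), Cox6b2 and Cox7b2 (testis) and Ndufa4l2 (induced by hypoxia) averaged 3.27 to 4.65 in frozen tissue, below the medians of the arrays. Ndufa4l2 changed by 0.23 ± 0.09 in frozen adenomas (adjusted p = 0.1 by limma), 0.15 ± 0.10 in carcinomas and 0.19 ± 0.10 in beta-catenin carcinomas. Their 95% intervals were wide in FFPE tissue, where 3 of 7 isoforms in foci and 4 of 7 in adenomas lay within 2-fold.

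Cox7a2l, also called SCAF1, which joins complex III to complex IV in supercomplexes, rose in beta-catenin carcinomas. It measured 10.40, 10.41, 10.54 and 10.68 there and 10.07 to 10.49 in surrounding liver, with overlap of the plain ranges. Within control sets it was higher in 4 of 4 arrays by 0.31 to 0.56, and the rise was 0.43 ± 0.08 (1.34-fold, adjusted p = 0.0038 by limma). This call was kept under all 18 alternatives run for it, with changes of 0.27 to 0.48. In frozen adenomas it was higher in 6 of 6 arrays and in carcinomas in 4 of 4, by 0.19 ± 0.08 and 0.17 ± 0.08, and neither passed (adjusted p = 0.123 and 0.243 by limma). Beta-catenin carcinomas exceeded carcinomas by 0.25 ± 0.08 without overlap, which was not called (unadjusted p = 0.00519, adjusted p = 0.591 by limma).

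Complex V, the ATP synthase, had no called subunit, although its inhibitor Atp5if1 rose. Atp5f1b, the catalytic beta subunit, measured 11.89 to 12.54 in foci and 11.94 to 12.22 in FFPE surrounding liver. It measured 12.79 to 13.28 in frozen adenomas, 12.87 to 12.95 in carcinomas and 12.64 to 13.10 in beta-catenin carcinomas, against 12.69 to 12.85 in surrounding liver, and the carcinomas alone lay wholly above. Its changes were 0.17 ± 0.12 in foci, 0.20 ± 0.09 in frozen adenomas, 0.17 ± 0.09 in carcinomas and 0.15 ± 0.09 in beta-catenin carcinomas (adjusted p = 0.141 to 0.568 by limma). Atp5f1a, the alpha subunit, changed by 0.11 ± 0.15 in foci, 0.13 ± 0.11 in frozen adenomas, 0.23 ± 0.12 in carcinomas and 0.02 ± 0.12 in beta-catenin carcinomas. Atp5f1b was positive in 6 of 6 comparisons (0.09 to 0.20) and Atp5f1a in 5 of 6. Atp5f1c, the gamma subunit of the rotor, singled out after its values were seen, measured 12.12 to 12.60 in FFPE adenomas and 11.49 to 12.36 in FFPE surrounding liver, a change of 0.40 ± 0.13 that did not pass (adjusted p = 0.136 by limma). Of the 15 complex V genes, 11 lay above 0 in frozen adenomas, 12 in carcinomas and 11 in beta-catenin carcinomas, with medians of 0.13, 0.10 and 0.02. Of all 14217 genes, 7016, 7476 and 7763 lay above 0 in the same order. All 15 intervals lay within 2-fold in each of the 6 comparisons.

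Averaged over the subunits of each complex or complex I arm, lesion arrays stayed within 0.50 of their matched surrounding array. In foci these means divided by control set. The 3 foci of 1 set (replicates 4 to 6) had matrix arm means of 0.38 to 0.44 and complex V means of 0.27 to 0.50 above their surrounding array, while foci 7 to 9 had -0.30 to -0.20 and -0.21 to -0.07. The surrounding array of the first set (FFPE surrounding replicate 3) had the lowest complex V mean of the 4, 10.70 against 11.08 for the next. Without it the median change of the members in foci was -0.10, against 0.00 with all arrays. In carcinomas the means of complexes II (0.02 to 0.26), III (0.00 to 0.28) and V (0.05 to 0.18) were above 0 in 4 of 4 arrays. In beta-catenin carcinomas those of complexes III and V were above 0 in 3 of 4 and that of complex II in 2 of 4. The surrounding arrays of carcinoma sets were themselves lower than the others, with median gene differences of -0.04, -0.08 and -0.10 for complexes II, III and V. Over all genes that median was -0.09. The array means are descriptions and carry no test.

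**Figure D4:**
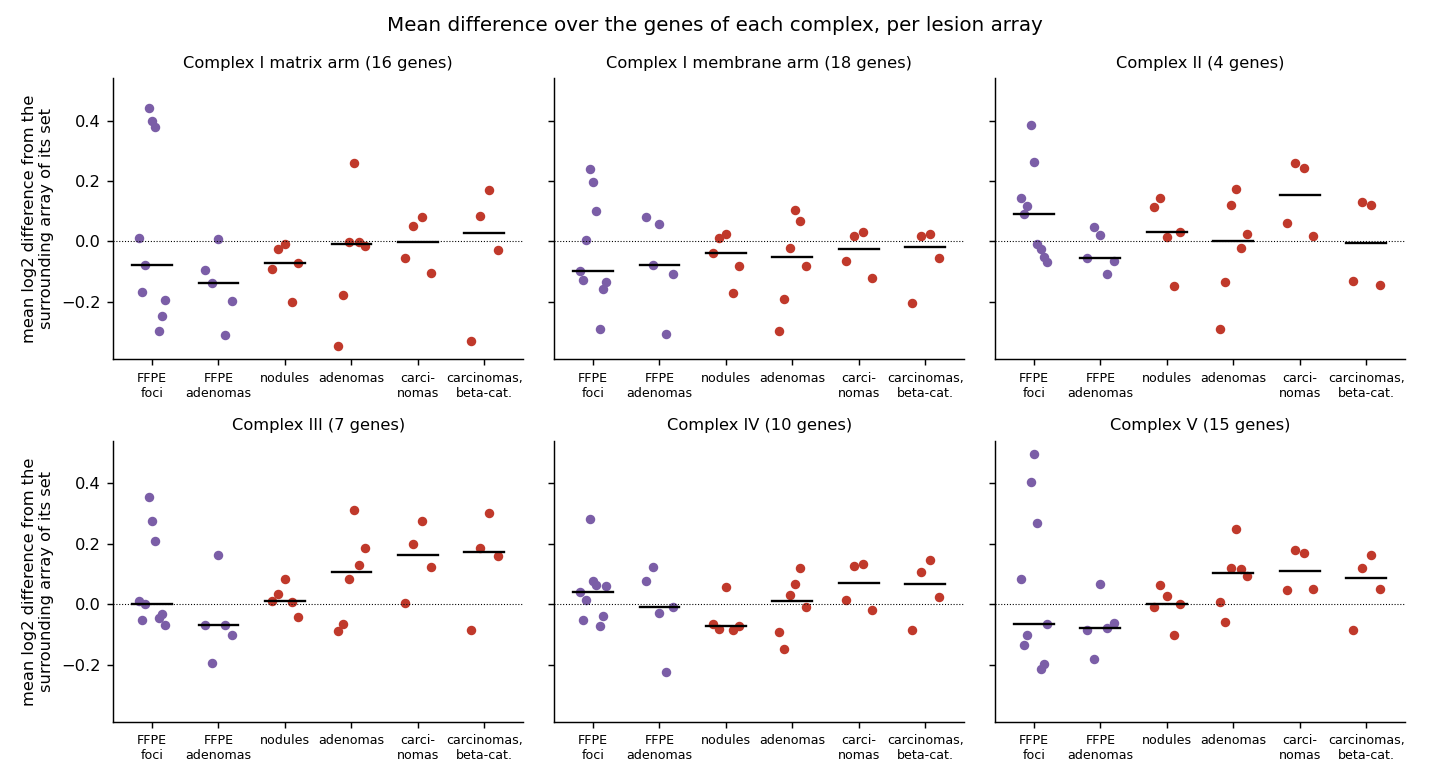
Mean log2 difference over the genes of each complex between a lesion array (points, medians as lines) and the surrounding array of its set, FFPE in purple and frozen in red. Foci split widely, from -0.30 to 0.44 for the matrix arm of complex I, and frozen lesions stay within 0.35.

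Lesion groups were also compared with each other, and no member was called with the control set block. Without it 8 members and 2322 genes were called in carcinomas minus adenomas and 2 members and 437 genes in adenomas minus nodules, and with the animal as replicate block 2 members and 419 genes in carcinomas minus adenomas. No control set held both carcinomas and frozen adenomas, and nodule replicate 5 alone shared a set with frozen adenomas. These blocked comparisons thus ran largely through single surrounding arrays, and their lack of calls does not show that the groups are alike. The median standard error of members was 0.146 in carcinomas minus adenomas, against 0.105 in carcinomas minus surrounding liver. FFPE adenomas minus foci gave 0% of all genes called by limma, with 633 genes and 3 members at an unadjusted p under 0.05. These were Uqcr10, of complex III, at -0.38 ± 0.16, and the complex I assembly factors Ndufaf7 at -0.72 ± 0.31 and Ndufaf1 at -0.71 ± 0.33 (adjusted p = 0.999 for each). Adenomas minus nodules gave 0%, with 1727 genes and 2 members at that level, Atp5if1 and Ndufb11. Ndufb11, of the complex I membrane arm, stood at -0.23 ± 0.11 (adjusted p = 0.406). Carcinomas minus adenomas gave 0%, with 711 genes and 0 members. The largest moderated t of each complex there belonged to Ndufb2 of complex I (0.30 ± 0.14), Sdhd of complex II (0.28 ± 0.17), Uqcr11 of complex III (0.16 ± 0.14), Cox4i1 of complex IV (0.23 ± 0.12) and Atp5f1d of complex V (0.16 ± 0.14). Beta-catenin carcinomas minus carcinomas gave 0%, with 812 genes and 5 members. Beside Ndufa6 and Cox7a2l these were Cox6c at 0.21 ± 0.08, Sdha at -0.24 ± 0.10 and Atp5pb, of the ATP synthase stalk, at -0.16 ± 0.07 (adjusted p = 0.699 to 0.853). The 95% interval lay within 2-fold for 79, 84, 84 and 85 of 86 members in these 4 comparisons.

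The surrounding liver itself differed by kind of control set, which is why differences were matched. The 3 surrounding arrays of the sets named for carcinomas were compared with the 4 others. Cox4i1 measured 12.31, 12.44 and 12.47 in the carcinoma sets and 11.28, 11.31, 11.64 and 11.77 in the others, a difference of 0.90 ± 0.13 (1.87-fold, adjusted p = 0.00693 by limma). Ndufb3, of the complex I membrane arm, measured 11.37, 11.37 and 11.42 in the carcinoma sets and 11.85 to 11.92 in the others, a difference of -0.49 ± 0.07 (adjusted p = 0.00628 by limma). Ndufc2, of the same arm, measured 10.67, 10.76 and 10.77 in the carcinoma sets and 11.04 to 11.09 in the others, a difference of -0.33 ± 0.07 (adjusted p = 0.032 by limma). The first 2 were called under all 12 alternatives and Ndufc2 under 4 of 12, its call being lost with the animal as replicate block (adjusted p = 0.0675), with no intensity trend (adjusted p = 0.0544) and without any 1 of surrounding replicates 2 to 7 (adjusted p up to 0.126). Altogether 1 member was higher and 2 lower in the carcinoma sets, against 3.07% and 3.09% of all genes, 27 members and 3480 genes had an unadjusted p under 0.05, and the median was -0.10 for members and -0.09 for all genes. These counts use the brightest probe set of each gene. In a fit of all probe sets with 1 symbol, the second probe set of Uqcrc2 differed by 1.21 ± 0.11 (adjusted p = 0.000201 by limma). Its brightest probe set differed by -0.08 ± 0.08. Unmatched, Cox4i1 averaged 12.43 in carcinomas and 11.14 in adenomas, and matched, these groups differed by 0.23 ± 0.12 (adjusted p = 0.929 by limma). Each of 2 rats had a control set of both kinds. In these rats Cox4i1 measured 12.47 and 12.31 in the carcinoma sets, against 11.77 and 11.31 in the other sets, and Ndufb3 measured 11.37 and 11.42, against 11.92 and 11.85. The labels name no batch for these sets.

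**Figure D5:**
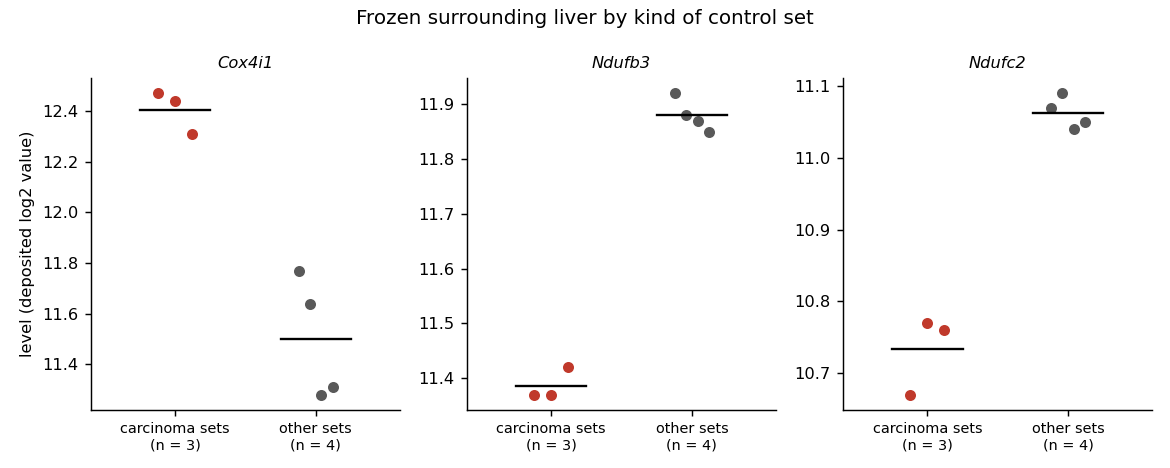
Level (deposited log2 value) of the members called between frozen surrounding arrays of carcinoma control sets (red, n = 3) and other control sets (grey, n = 4), with group means as lines. Cox4i1 is higher and Ndufb3 and Ndufc2 are lower in the carcinoma sets, with no overlap in any of them.

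Other mitochondrial genes gave a setting for the members. Over all genes 8.36% rose and 6.56% fell in frozen adenomas, 2.86% and 3.5% in carcinomas and 5.09% and 5.07% in beta-catenin carcinomas. In foci 1.81% rose and 1.36% fell, and in FFPE adenomas 1.29% and 0.872%. Of 26 further membrane and matrix proteins, 5 rose and 1 fell in frozen adenomas, 4 rose and 1 fell in carcinomas and 4 rose and 0 fell in beta-catenin carcinomas. Slc25a4 (ANT1), the ADP/ATP carrier isoform of heart and muscle, measured 8.002 to 10.75 in adenomas, 7.88, 11.07, 11.53 and 11.61 in carcinomas, 11.00 to 11.86 in beta-catenin carcinomas and 7.35 to 8.08 in surrounding liver. Its lowest adenoma and lowest carcinoma overlapped with surrounding liver. The rises were 2.35 ± 0.72 (adjusted p = 0.0352), 2.99 ± 0.74 (adjusted p = 0.0224) and 3.96 ± 0.74 (adjusted p = 0.00287, all by limma). Vdac2, a porin of the outer membrane, rose by 0.49 ± 0.11, 0.47 ± 0.11 and 0.58 ± 0.11 in the same groups (adjusted p = 0.0036 to 0.0169 by limma). Tomm20, an import receptor, rose by 0.26 ± 0.08, 0.45 ± 0.08 and 0.55 ± 0.08 (adjusted p = 0.000843 to 0.0409 by limma), and Etfb, an electron carrier of fatty acid oxidation, fell by 0.54 ± 0.15 and 0.53 ± 0.16 in adenomas and carcinomas (adjusted p = 0.0246 and 0.0498 by limma). Of 38 assembly factors outside the member rule, Acad9, needed for complex I assembly, rose in foci by 0.97 ± 0.22 and in FFPE adenomas by 1.09 ± 0.24 (adjusted p = 0.0102 and 0.012 by limma). Surf1 and Sdhaf3, which serve complexes IV and II, fell in frozen adenomas by 0.35 ± 0.09 and 0.58 ± 0.17 (adjusted p = 0.0157 and 0.0296 by limma). In beta-catenin carcinomas Cox14 rose by 0.58 ± 0.14 and Pet100 fell by 0.42 ± 0.11 (adjusted p = 0.011 and 0.0239 by limma), both complex IV assembly factors. The plain ranges of both overlapped with surrounding liver. Cox14 was also lower in surrounding liver of the carcinoma control sets than of the others (-0.36 ± 0.09, adjusted p = 0.0484 by limma). Of 19 biogenesis regulators 1 was called in the 6 comparisons with surrounding liver, Polrmt, the mitochondrial RNA polymerase, in frozen adenomas (-0.40 ± 0.13, adjusted p = 0.0454 by limma). Of 15 citrate cycle and pyruvate dehydrogenase genes, Suclg2 fell in adenomas and carcinomas by 0.41 ± 0.09 and 0.41 ± 0.10, and in beta-catenin carcinomas Cs, citrate synthase, rose by 0.65 ± 0.14 and Sucla2 fell by 0.49 ± 0.12 (adjusted p = 0.00759 to 0.0166 by limma). Of 73 mitochondrial ribosomal proteins, 4, 2 and 3 rose in adenomas, carcinomas and beta-catenin carcinomas and 0 fell, with medians of 0.03, 0.02 and 0.01. Of 42 cytosolic ribosomal proteins, 35, 16 and 36 rose in the same groups, with medians of 0.43, 0.32 and 0.54, while the members' medians there were -0.01, 0.05 and 0.02.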

How the data were processed

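Single-colour Affymetrix rat arrays of 47 liver samples were used. The authors deposited log2 probe set values (31042 probe sets, no missing value), used as deposited. Background correction, summarization and normalization are not given in the sources used here. Arrays give no molecule counts, so their number limits the precision. Of these probe sets 20826 carry 1 gene symbol, 436 several and 9780 none, and only the first were kept. Each of 14217 genes was represented by its brightest probe set within a fixation, and 96 probe sets belong to the 86 members. Levels of different probe sets rank brightness, not transcripts.

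Frozen and FFPE arrays had separate limma models (version 3.58.1, R 4.3.3) with group, the labelled control set as a fixed block and an intensity trend. Residual degrees of freedom were 15 (frozen), 12 (FFPE) and 5 (surrounding arrays alone). The fit was checked on simulated data. Control sets pair lesions with 1 surrounding array of the same rat per the labels. Arrays of different groups deviated together within a set (median r = 0.13 over 27 frozen and 0.11 over 23 FFPE pairs, 14 and 15 of them above 0.1) more than between sets (-0.02 and -0.04). The 3 arrays named C43 normal entered no comparison. FFPE adenoma replicate 4 has a source name of surrounding tissue, and the source-animal field conflicts with titles for animal 21, so animals were taken from titles and control sets. Alternatives were another block or none, no trend, quantile normalization, the mean of all probe sets, brighter genes only, control sets of 1 kind, and each array left out. Named genes were all called members, fixed core subunits and isoform pairs, the member with the largest moderated t per complex where none was called (in part), and up to 3 called genes per list. Members, classes and lists were chosen with earlier results of these data known.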

Additional observations from a re-analysis of the deposited data

Results flagged for a closer look

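In groups of 4 to 10 arrays the highest or lowest array was set against its nearest neighbour, relative to the range of its group. Of 216 such groups of a member or a complex mean, 14 had an array that stood apart, and chance alone flags about 1 in 20. Atp5if1 was low in focus replicate 5 (9.01, next 9.60), in beta-catenin carcinoma replicate 4 (9.94, next 10.57) and in FFPE surrounding replicate 3 (7.57, next 8.34). The same surrounding array was low in its complex II mean (10.16, next 10.54) and complex V mean (10.70, next 11.08). The complex II mean of focus replicate 6 was 10.15 (next 10.42). Low members were Cox7a2l in FFPE adenoma replicate 3 (9.23, next 9.48), Ndufc1 in frozen adenoma replicate 1 (10.68, next 11.09), Ndufb3 in carcinoma replicate 4 (11.25, next 11.53) and Sdha in frozen surrounding replicate 5 (11.01, next 11.18). High members were Atp5f1a and Uqcr11 in carcinoma replicate 3 (12.24, next 11.79, and 11.33, next 11.16), and Cox5a and Uqcrh in beta-catenin carcinoma replicate 3 (7.51, next 7.12, and 11.29, next 11.12).

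The 3 arrays named C43 normal, whose labels also read surrounding tissue under phenobarbital, lay above the highest surrounding array of their fixation in some means. The FFPE C43 array exceeded it for the complex I matrix arm (10.45 against 9.87), membrane arm (10.88 against 10.33) and assembly factors (7.33 against 7.31), complex IV (11.71 against 11.11), complex V (11.64 against 11.15) and Atp5if1 (8.67 against 8.47). In frozen tissue the complex III mean was 11.57 and 11.54 in C43 replicates 1 and 2, against 11.52, and the complex II mean of C43 replicate 2 was 11.54, level with the highest surrounding array to 2 decimals. These arrays entered no test.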

How the results depend on the processing

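Counts of called members depended most on how control sets entered. With no replicate block, called members numbered 1 in nodules (0 in the blocked fit), 16 in frozen adenomas (2), 9 in carcinomas (2), 11 in beta-catenin carcinomas (6), 2 in adenomas minus nodules (0) and 8 in carcinomas minus adenomas (0), and Ndufc2 in the last turned to -0.27 (0.01 in the blocked fit). With the animal as replicate block they numbered 14, 5, 11 and 2 in frozen adenomas, carcinomas, beta-catenin carcinomas and carcinomas minus adenomas, whose median change was -0.092 (0.029). With control sets of 1 kind alone, 1 member was called in carcinomas and 2 in beta-catenin carcinomas, beside 571 and 993 of all genes. The mean of all probe sets left 0 in foci, 0 in FFPE adenomas, 1 in frozen adenomas, 1 in carcinomas and gave 6 between control sets (3). Over all genes 378, 229, 1962, 905 and 1231 were called in the same order. Quantile normalization gave 5 in frozen adenomas, beside 2084 of all genes. Brighter genes alone gave 4 in carcinomas and 5 between control sets, beside 1050 and 985 of the brighter genes. Leaving out 1 array at a time gave 1 to 3 called members in frozen adenomas, 1 to 2 in carcinomas, 1 to 7 in beta-catenin carcinomas (1 without surrounding replicate 7, and 2 without surrounding replicate 5 or beta-catenin replicate 2 or 3) and 2 to 3 between control sets, with median changes of -0.105 to 0.052 in foci (lowest without FFPE surrounding replicate 3) and -0.024 to 0.108 in beta-catenin carcinomas (highest without replicate 1). Counts over all genes moved too. With no replicate block they came to 93 in nodules (0), 3994 in frozen adenomas (2122), 2399 in carcinomas (904), 2525 in beta-catenin carcinomas (1444), 437 in adenomas minus nodules (0), 2322 in carcinomas minus adenomas (0) and 161 in FFPE adenomas (307); with the animal block to 32, 3555, 1620, 2463 and 419 in nodules, frozen adenomas, carcinomas, beta-catenin carcinomas and carcinomas minus adenomas. They were 233 in foci (452) and 137 in FFPE adenomas with no trend, 571 in carcinomas with control sets of 1 kind, and 1 in beta-catenin carcinomas minus carcinomas with brighter genes alone. With 1 array left out they were 245 to 445 in foci, 145 to 362 in FFPE adenomas, 544 to 2352 in frozen adenomas, 215 to 1086 in carcinomas, 388 to 1606 in beta-catenin carcinomas and 242 to 752 between control sets. Of the remaining values, 340 summary values kept their level, and of those of single members 3551 kept their side of the threshold and size, 291 moved, 33 gained and 51 lost the call; the cause was not tested. The median standard error of a member was 0.16 in foci and 0.17 in FFPE adenomas, against 0.10 in nodules, 0.10 in frozen adenomas and 0.10 in each kind of carcinoma, so small changes were least detectable in FFPE tissue.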
